A study of Mus musculus with 4 samples.

Results

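The Hox genes described here are the members of the 4 mouse Hox clusters that the arrays measured in Thy1+ LSK bone marrow cells. They were taken as the genes with an annotation row that lists a single symbol made of Hox, a cluster letter and a number. The rule found 36 genes of 22180, namely 9 in HoxA on chromosome 6, 10 in HoxB on chromosome 11, 9 in HoxC on chromosome 15 and 8 in HoxD on chromosome 2. Hoxa11 and Hoxd4 appeared only on rows shared with another symbol and are not among them.

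Thy1+ LSK cells are lineage-negative marrow cells that carry Sca-1, Kit and low Thy1, a fraction rich in blood stem cells. They were sorted without culture from 11 to 18 month old C57BL/6 mice, and 2 arrays were run for mice lacking both copies of Nol3 and labelled MPN (Nol3-/- MPN) and 2 for mice with both copies intact (Nol3+/+). Nol3 encodes ARC, an inhibitor of cell death, and MPN is read here as myeloproliferative neoplasm, so that genotype and disease cannot be told apart in this comparison. Sample labels give MPN to the Nol3-/- mice only, although the wording of the title leaves room for both genotypes. The labels give neither the sex of the animals nor how the deletion was made, and do not say if an array held 1 animal or a pool, so p-values measure the spread between these arrays alone. Over the 16635 genes later tested, replicate 1 of Nol3+/+ stood apart. It correlated at 0.899 and 0.908 with the Nol3-/- MPN arrays and at 0.911 with its own replicate. Replicate 2 of Nol3+/+ was closer to the Nol3-/- MPN arrays, at 0.929 and 0.945, and these correlated at 0.949 with each other.

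Hox genes encode homeodomain transcription factors that give position along the body axis in the embryo. Their order along each cluster follows their order of use, and genes that hold the same place in different clusters share a number and are called paralogues. In blood, several genes of HoxA and HoxB are used in stem and early progenitor cells and are shut off as cells mature. They work with TALE cofactors of the Meis and Pbx families, are kept on by the MLL (Kmt2a) methyltransferase and are silenced by Polycomb complexes.

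The clusters also carry microRNA genes, of which miR-196 is known in mouse embryos to target Hox messages such as Hoxb8. The mature 5p strands of miR-196 and miR-10 are shown because they fall into a pair of families by seed (bases 2 to 8, in capitals). Each family lies at the same relative place in different clusters. The 5p strand of miR-615, from HoxC, has a seed of neither family and is not shown. Sequences and positions are from RefSeq on GRCm38.p6.
miR-196a-5p, HoxB cluster, chr11:96265187-96265208, plus strand, and HoxC cluster, chr15:102973365-102973386, plus strand: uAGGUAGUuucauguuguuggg
miR-196b-5p, HoxA cluster, chr6:52230129-52230150, minus strand: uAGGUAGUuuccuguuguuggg
miR-10a-5p, HoxB cluster, chr11:96317186-96317208, plus strand: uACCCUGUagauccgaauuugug
miR-10b-5p, HoxD cluster, chr2:74726074-74726096, plus strand: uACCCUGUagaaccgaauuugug
The seed AGGUAGU is common to the miR-196 strands and ACCCUGU to the miR-10 strands.

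Signals of the Hox genes were low. A signal here is the deposited normalized value, taken as log2. The mean over the 4 arrays ran from 3.67 for Hoxd9 to 6.43 for Hoxd10, with a median of 4.97 over the 36 genes against 5.42 over all genes. Olfactory receptor genes, which blood stem cells are not known to use, served as a gauge of background, and 1105 of them had a median of 4.69. Their means ran up to 11.7 for Olfr310, so the upper percentiles of this list may lie above plain background. Of the Hox genes, 27 of 36 (75%) lay above that median, against 80.0% of all genes. Above the 75th percentile of the olfactory receptor genes (5.54) lay 9 Hox genes (25%), against 45.3% of all genes. Only Hoxd10 lay above their 90th percentile (6.41), which is 2.78% of the Hox genes against 19.7% of all genes. No Hox gene reached their 95th percentile (6.90), while 12.4% of all genes did. Each row has its own probes, so an order of signals between genes is not an order of transcript amounts. By this gauge a signal in this range cannot be told from background. Fewer cells that use a gene and less RNA of it in each cell cannot be told apart in these sorted populations.

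**Figure D1:**
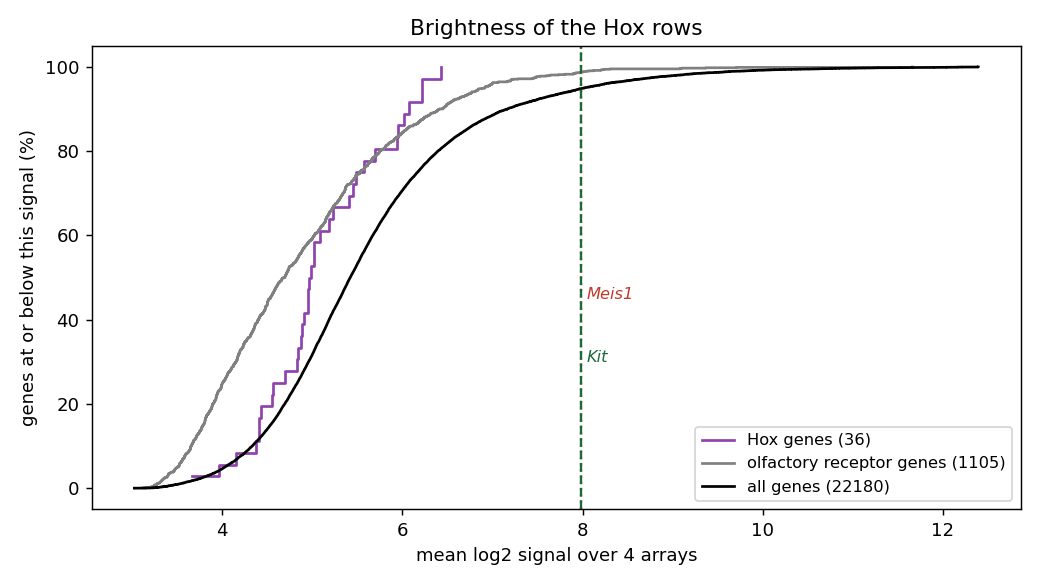
Cumulative share of genes (y axis, percent) at or below a mean log2 signal over 4 arrays (x axis) for 36 Hox genes, 1105 olfactory receptor genes and all 22180 genes, with vertical lines, which fall on each other, at Meis1 and Kit. The Hox curve ends at 6.43, left of both lines, while the curve of all genes runs on beyond them.

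Among paralogues 1 to 4, which act in the head, neck and hindbrain of the embryo, the median of the means over 10 genes was 5.02. Hoxa3, needed for the thymus and other pharyngeal organs, gave signals of 6.15 and 6.18 in Nol3-/- MPN arrays and 6.37 and 6.20 in Nol3+/+ arrays. Hoxb4, whose forced expression expands mouse blood stem cells, gave 6.48 and 5.72 in Nol3-/- MPN arrays and 6.14 and 6.52 in Nol3+/+ arrays. Among the genes counted here, these were the brightest of HoxA and HoxB. The Nol3-/- MPN arrays of Hoxa3 lay just below the Nol3+/+ arrays, and for Hoxb4 replicate 2 of Nol3-/- MPN was low while replicate 1 fell among the Nol3+/+ arrays. Hoxa4 read 5.51 and 5.51 in Nol3-/- MPN arrays and 5.67 and 5.63 in Nol3+/+ arrays. The other 7 genes of these numbers (Hoxa2, Hoxb1, Hoxb2, Hoxb3, Hoxc4, Hoxd1 and Hoxd3) had means between 4.38 for Hoxb2 and 5.41 for Hoxc4.

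Among paralogues 5 to 8, which act in the trunk, the median of the means over 11 genes was 4.70. Hoxa6 gave 5.91 and 6.06 in Nol3-/- MPN arrays and 6.08 and 6.03 in Nol3+/+ arrays. Hoxb6 gave 5.77 and 6.10 in Nol3-/- MPN arrays and 5.92 and 5.96 in Nol3+/+ arrays. In both genes the arrays of the groups overlapped. Hoxb5, a reporter of which marks long-term stem cells in mouse marrow, gave 5.63 and 5.67 in Nol3-/- MPN arrays and 5.87 and 5.62 in Nol3+/+ arrays. It was the only Hox gene with 2 rows of its own, and its dimmer row read 4.93 and 4.96 in Nol3-/- MPN arrays and 5.20 and 5.14 in Nol3+/+ arrays. The brighter row of Hoxb5 overlapped between the groups, while the dimmer one was lower in both Nol3-/- MPN arrays. Hoxa5, Hoxa7, Hoxb7, Hoxb8, Hoxc5, Hoxc6, Hoxc8 and Hoxd8 made up the rest, with means between 3.97 for Hoxb8 and 5.49 for Hoxd8.

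Among paralogues 9 to 13, which act in the lumbar region, tail, limbs and urogenital tract, the median of the means over 15 genes was 4.98. Hoxa9, a driver of stem cell self-renewal that is raised in MLL-rearranged leukaemia, gave 5.96 and 6.07 in Nol3-/- MPN arrays and 6.17 and 6.12 in Nol3+/+ arrays. Hoxa10, its neighbour with a role in myeloid progenitors, gave 4.88 and 5.04 in Nol3-/- MPN arrays and 4.96 and 5.05 in Nol3+/+ arrays. Hoxa9 was slightly lower in both Nol3-/- MPN arrays, whereas the Hoxa10 arrays overlapped. Hoxd10, known from limb and spinal motor neuron patterning, was the brightest of the 36 genes. It gave 6.48 and 6.56 in Nol3-/- MPN arrays and 6.19 and 6.50 in Nol3+/+ arrays, with overlap between the groups. Hoxc9 was the brightest row of HoxC, with a mean of 5.96 over the 4 arrays. The remaining 11 genes were Hoxa13, Hoxb9, Hoxb13, Hoxc10, Hoxc11, Hoxc12, Hoxc13, Hoxd9, Hoxd11, Hoxd12 and Hoxd13. Their means lay between 3.67 for Hoxd9 and 5.45 for Hoxc10.

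The clusters differed little in brightness. The median of the gene means was 4.98 in HoxA, 4.94 in HoxB, 4.84 in HoxC and 5.02 in HoxD. The lowest genes were Hoxa7 at 4.57, Hoxb8 at 3.97, Hoxc6 at 4.15 and Hoxd9 at 3.67. Within one number the clusters could lie far apart. The genes of number 9 had means of 6.08 for Hoxa9, 5.23 for Hoxb9, 5.96 for Hoxc9 and 3.67 for Hoxd9.

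**Figure D2:**
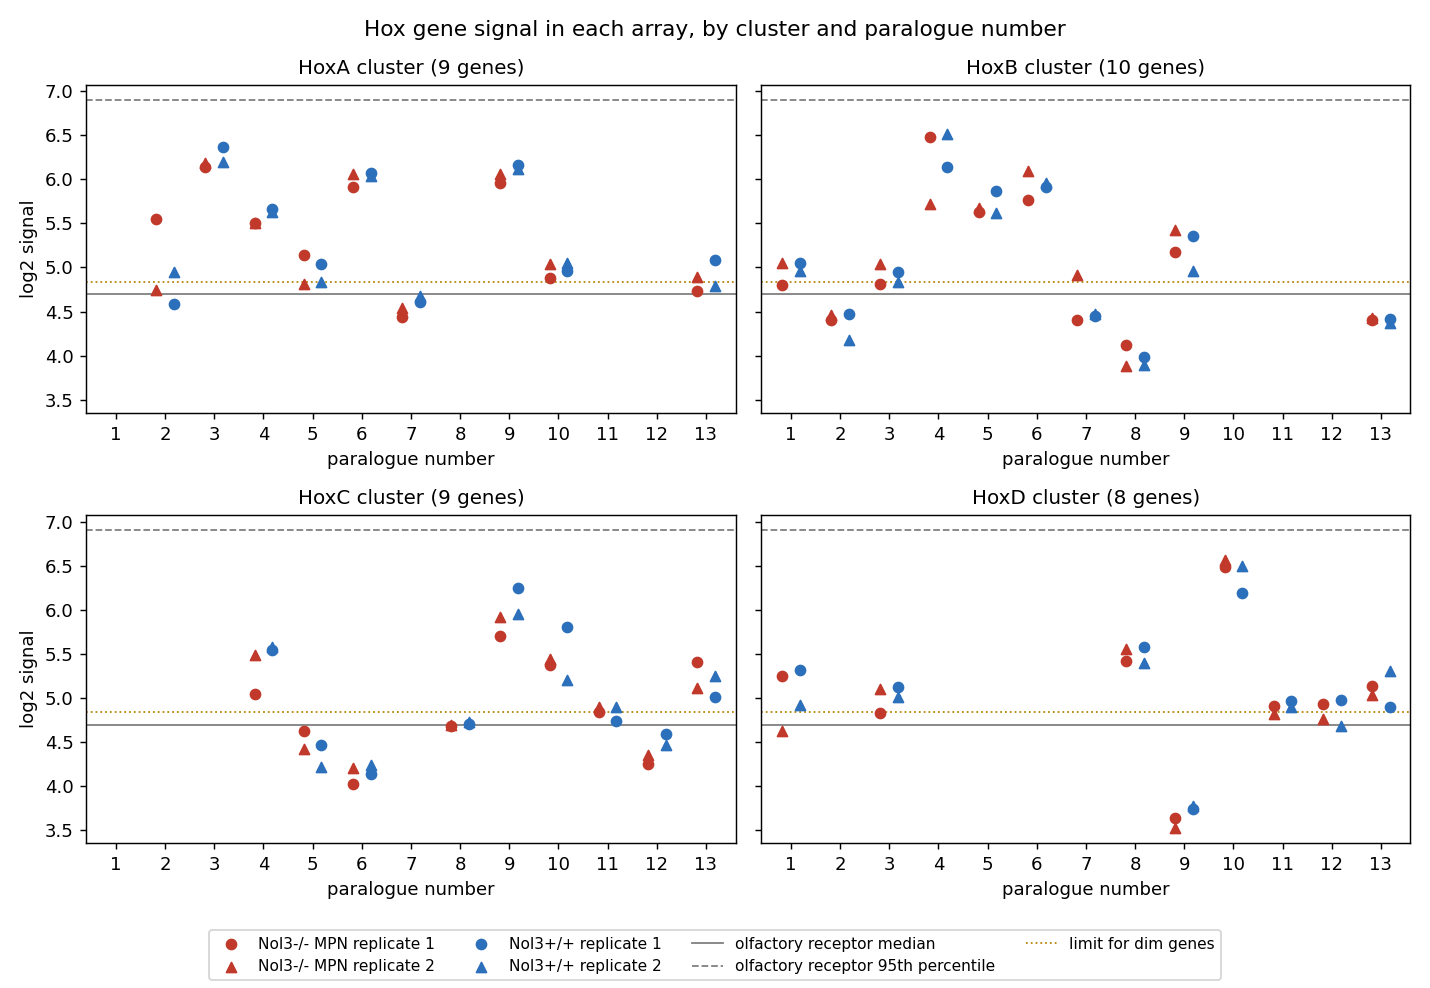
Log2 signal (y axis) of each Hox gene in each array, by paralogue number (x axis) in 4 panels for the clusters, with Nol3-/- MPN arrays in red and Nol3+/+ arrays in blue. All points lie below the dashed olfactory receptor 95th percentile at 6.90, and the red and blue points of most genes lie together.

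Between the groups no Hox gene differed past the threshold. The median signal of the 36 genes was 4.99 and 5.03 in Nol3-/- MPN arrays, against 5.02 and 4.95 in Nol3+/+ arrays. The log2 difference, Nol3-/- MPN minus Nol3+/+, was positive for 14 genes and negative for 22, with a median of -0.05 against 0.00 over all genes. It ran from -0.29 for Hoxc4 to 0.38 for Hoxa2. No Hox gene reached a difference of 1, which is 2-fold, while 342 of all genes (1.54%) did.

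The test was limma's moderated test with Benjamini-Hochberg adjustment over 16635 genes, after leaving out as dim the genes below the 25th percentile of mean signal (4.84 on the log2 scale). That filter kept 26 Hox genes and removed 10, namely Hoxa7, Hoxb2, Hoxb7, Hoxb8, Hoxb13, Hoxc5, Hoxc6, Hoxc8, Hoxc12 and Hoxd9. An adjusted p under 0.05 was reached by 0 of the 26, against 0.024% of all genes tested (4 genes). The smallest adjusted p of a Hox gene in limma was 0.863. At an unadjusted p under 0.05 in limma, 0 Hox genes were higher in Nol3-/- MPN, against 3.73% of genes tested, and 0 were lower, against 2.07%. Without the dim filter all 36 could be tested, and again 0 had an unadjusted p under 0.05 in limma, against 5.22% of the 22180 genes in that fit. Without replicate 1 of Nol3+/+, 0 of the 26 passed either threshold in limma, against 5.57% of genes at an unadjusted p under 0.05. In that setting the differences of the 36 genes had a median of -0.03.

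The intervals limit the size of a difference in signal. Since by the olfactory receptor gauge signals in this range cannot be told from background, the intervals set no such limit on transcript amounts. The 95% interval of the log2 difference lay within 2-fold in either direction for 24 of the 26 Hox genes tested, against 83.1% of genes tested. Over all rows it did so for 34 of 36 Hox genes, against 85.9% of all genes. The exceptions were Hoxa2, whose interval reached up to 1.14, and Hoxb4, whose interval reached down to -1.02. The median width of the interval to either side was 0.41 for the Hox genes tested and 0.47 for all genes tested. With 2 arrays per group, differences below about that size would mostly not reach even an unadjusted p under 0.05 in limma. The adjusted threshold asked for more: Kdm6a, described below, did not pass it at a log2 difference of 1.42 (adjusted p = 0.692 in limma).

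**Figure D3:**
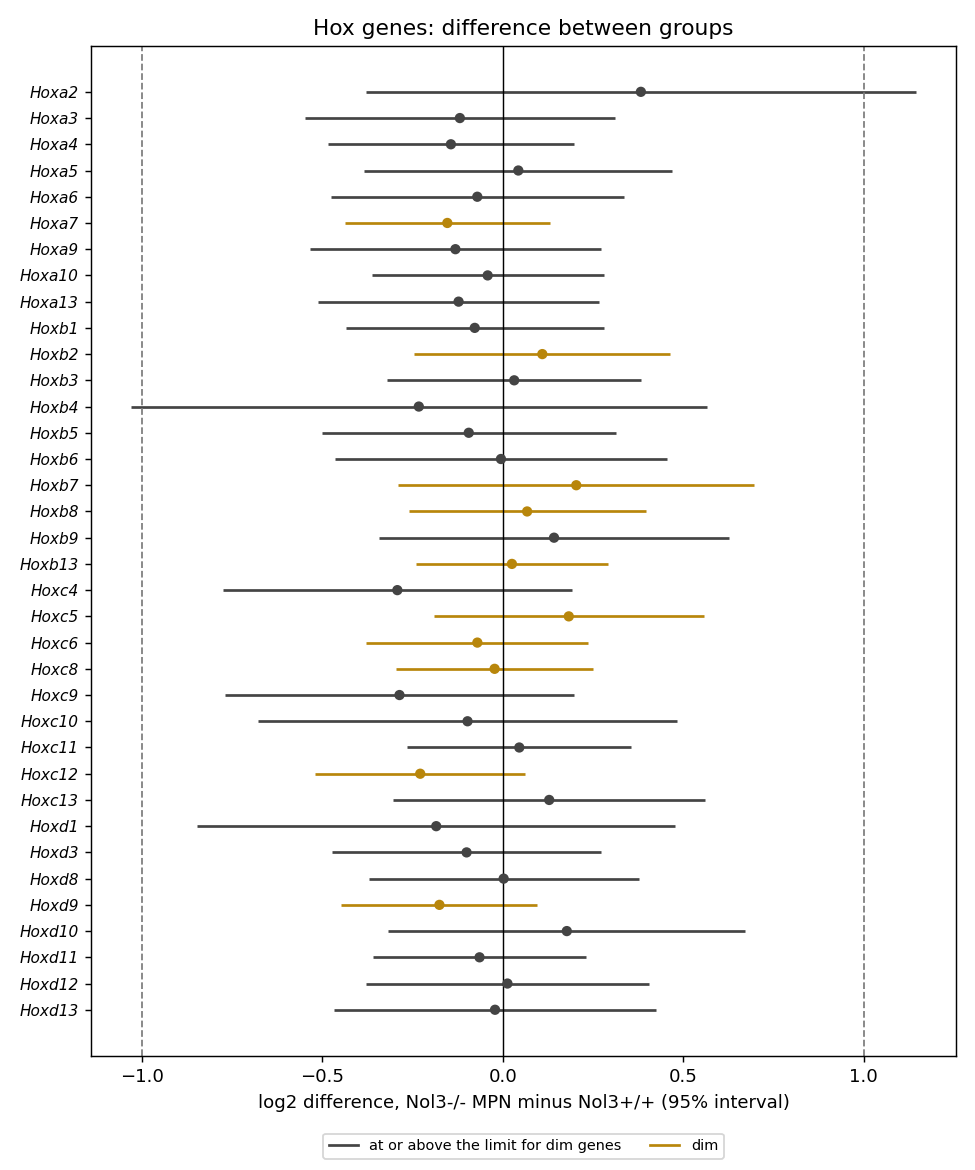
Log2 difference, Nol3-/- MPN minus Nol3+/+ (x axis), of each of the 36 Hox genes with its 95% interval from the limma fit without a dim filter, with dim genes in gold. Every interval spans 0, and only those of Hoxa2 and Hoxb4 pass the dashed lines at a 2-fold difference.

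The arrays of the groups failed to overlap for 9 Hox genes, all of them lower in Nol3-/- MPN (25% of 36, against 16.4% of all genes). None was higher in both Nol3-/- MPN arrays, against 18.8% of all genes. The 9 genes were Hoxa3, Hoxa4, Hoxa7 and Hoxa9 in HoxA, Hoxc4, Hoxc8, Hoxc9 and Hoxc12 in HoxC, and Hoxd9 in HoxD, with 0 of the 10 HoxB genes among them. When the rows of a gene were averaged the count was 10 (16.5% of all genes), with Hoxb5 added, so the 0 of HoxB rests on the choice of row. Their log2 differences were small, between -0.022 for Hoxc8 and -0.29 for Hoxc4, and 0 of them had an unadjusted p under 0.05 in limma. The count in the higher direction depended on the scale of the arrays, and was 2 (Hoxb13 and Hoxd10) after centring each array on its median, against 19.5% of all genes. After quantile normalization it was 1 (Hoxb13), against 17.5% of all genes.

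The 6 genes with the smallest p in the limma fit without a dim filter were Hoxc12, Hoxd9, Hoxc4, Hoxc9, Hoxa7 and Hoxa2. Hoxc4, which is known to act in lymphocytes, gave 5.05 and 5.49 in Nol3-/- MPN arrays and 5.55 and 5.57 in Nol3+/+ arrays. The Hoxc4 means were 5.27 ± 0.31 in Nol3-/- MPN and 5.56 ± 0.02 in Nol3+/+ (SD, n = 2 each), and replicate 1 of Nol3-/- MPN was the low array. The log2 difference of Hoxc4 was -0.29 (SE 0.18, adjusted p = 0.863 in limma). Without replicate 1 of Nol3-/- MPN the difference of Hoxc4 was -0.070. Without replicate 2 of Nol3-/- MPN it was -0.51, with an unadjusted p of 0.0367 and an adjusted p of 0.976 in limma.

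Hoxc9, which acts in the thoracic region of the embryo, gave 5.70 and 5.92 in Nol3-/- MPN arrays and 6.25 and 5.95 in Nol3+/+ arrays. Replicate 1 of Nol3+/+ was the high array, and the other 3 lay within a narrower range. The Hoxc9 means were 5.81 ± 0.15 in Nol3-/- MPN and 6.10 ± 0.21 in Nol3+/+ (SD, n = 2 each). The log2 difference of Hoxc9 was -0.29 (SE 0.18, adjusted p = 0.863 in limma). It was -0.13 without replicate 1 of Nol3+/+ and -0.44 without replicate 2 of Nol3+/+. Without replicate 1 of Nol3-/- MPN it was -0.18.

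Hoxa2, a selector gene of the second pharyngeal arch and the hindbrain, gave 5.55 and 4.75 in Nol3-/- MPN arrays and 4.59 and 4.94 in Nol3+/+ arrays. Replicate 1 of Nol3-/- MPN stood above the other 3 arrays, and replicate 2 lay between the Nol3+/+ arrays. The means were 5.15 ± 0.57 in Nol3-/- MPN and 4.76 ± 0.25 in Nol3+/+ (SD, n = 2 each). The log2 difference was 0.38 (SE 0.30, adjusted p = 0.878 in limma), and it turned to -0.018 without replicate 1 of Nol3-/- MPN. Without replicate 2 of Nol3-/- MPN it was 0.78, with an unadjusted p of 0.0236 and an adjusted p of 0.944 in limma.

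The other 3 of the 6 were dim. Hoxc12, a gene of the hair follicle and posterior axis, gave 4.25 and 4.35 in Nol3-/- MPN arrays and 4.59 and 4.46 in Nol3+/+ arrays, a log2 difference of -0.23 (adjusted p = 0.881, limma without the dim filter). Hoxd9, a gene of the limb and posterior axis, gave 3.64 and 3.52 in Nol3-/- MPN arrays and 3.74 and 3.77 in Nol3+/+ arrays, a log2 difference of -0.18 (adjusted p = 0.881, limma without the dim filter). Hoxa7, used in early blood progenitors, gave 4.44 and 4.54 in Nol3-/- MPN arrays and 4.61 and 4.68 in Nol3+/+ arrays, a log2 difference of -0.15 (adjusted p = 0.887, limma without the dim filter). In all 3 genes both Nol3-/- MPN arrays lay below both Nol3+/+ arrays, at signals below the olfactory receptor median of 4.69.

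Hoxa9 and Hoxb4, for which blood roles are best known, were not among the 6. The log2 difference of Hoxa9 was -0.13 with a 95% interval of -0.52 to 0.26, from means of 6.01 ± 0.08 in Nol3-/- MPN and 6.14 ± 0.03 in Nol3+/+ (SD, n = 2 each). That of Hoxb4 was -0.23 with a 95% interval of -1.02 to 0.55, from means of 6.10 ± 0.54 in Nol3-/- MPN and 6.33 ± 0.27 in Nol3+/+ (SD, n = 2 each). The arrays of Hoxb4 differed within both groups, and its interval was wider than that of Hoxa9.

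By cluster, the median log2 difference was -0.12 in HoxA, 0.03 in HoxB, -0.07 in HoxC and -0.04 in HoxD. Over 7 alternatives the HoxA median ran from -0.14 to -0.05, lowest in size without replicate 1 of Nol3+/+, and the HoxC median from -0.14 (without replicate 2 of Nol3-/- MPN) to -0.017 (without replicate 2 of Nol3+/+). The HoxB median ran from -0.03 (without replicate 2 of Nol3+/+) to 0.09 (without replicate 1 of Nol3-/- MPN). The HoxD median ran from -0.12 (without replicate 2 of Nol3+/+) to 0.0032 (without replicate 2 of Nol3-/- MPN). By place in the cluster it was -0.11 for paralogues 1 to 4, 0.00 for 5 to 8 and -0.04 for 9 to 13. All 3 genes of number 4 had negative differences, of -0.14 for Hoxa4, -0.23 for Hoxb4 and -0.29 for Hoxc4. Both genes of number 1 and all 3 of number 6 were negative too. Both genes of number 2 had positive differences, of 0.38 for Hoxa2 and 0.11 for Hoxb2. That of Hoxa2 turned to -0.018 without replicate 1 of Nol3-/- MPN. Sets of so few genes can share a sign without any common shift.

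The spread within the groups was as large as the difference between them. The median size of the difference was 0.10 for the Hox genes, whereas the median gap between replicates was 0.16 in Nol3-/- MPN and 0.14 in Nol3+/+. Over all genes these were 0.14, 0.17 and 0.19. The difference between groups passed both gaps for 6 of 36 Hox genes (16.7%), against 22.4% of all genes. The widest gaps among Hox genes were 0.80 for Hoxa2 in Nol3-/- MPN and 0.59 for Hoxc10 in Nol3+/+.

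Sequence before the transcription start was available from RefSeq for 20 of the 36 genes, in 22 windows of 250 bases. It was searched on both strands for TGATNNAT, the composite site that Hox and Pbx proteins are known to bind together. The letters were present in 4 of the 22 windows (18.2%), against 1421 of 21263 windows of protein-coding genes (6.68%). The 4 genes were Hoxa2, Hoxb1, Hoxb8 and Hoxd11, with means between 3.97 and 4.96. The windows of Hoxa2, which had the largest log2 difference, and of Hoxb1, which is known to maintain its own expression in the hindbrain with Pbx, are shown on the gene's strand of GRCm38.p6 with the matching letters in capitals.
Hoxa2, chr6:52164832-52165081, minus strand: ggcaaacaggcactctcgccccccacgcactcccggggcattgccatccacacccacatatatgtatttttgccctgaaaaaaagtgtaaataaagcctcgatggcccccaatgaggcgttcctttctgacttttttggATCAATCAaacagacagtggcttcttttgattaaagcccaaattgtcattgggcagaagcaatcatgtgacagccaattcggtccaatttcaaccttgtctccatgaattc
Hoxb1, chr11:96365508-96365757, plus strand: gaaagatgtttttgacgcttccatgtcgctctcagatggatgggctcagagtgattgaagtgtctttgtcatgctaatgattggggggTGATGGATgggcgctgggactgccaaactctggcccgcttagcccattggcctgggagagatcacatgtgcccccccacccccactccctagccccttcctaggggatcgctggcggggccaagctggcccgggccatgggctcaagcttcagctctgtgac
The match ATCAATCA began 111 bases before the Hoxa2 start and reads in the reverse orientation, and TGATGGAT began 162 bases before the Hoxb1 start. A match says that the letters are present and no more. Hoxb1 gave 4.80 and 5.05 in Nol3-/- MPN arrays and 5.05 and 4.95 in Nol3+/+ arrays, with overlap between the groups.

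Of 19 non-coding RNA genes listed for the clusters, 7 had a row of their own. Mir196a-1, a source of the miR-196a-5p strand shown above, was the brightest, with 9.36 and 8.97 in Nol3-/- MPN arrays and 8.69 and 8.91 in Nol3+/+ arrays. Both Nol3-/- MPN arrays lay above both Nol3+/+ arrays, and its log2 difference was 0.36 (SE 0.24, adjusted p = 0.864 in limma). Mir196a-2, which encodes the same 5p strand from HoxC, gave 5.45 and 5.37 in Nol3-/- MPN arrays and 5.56 and 5.11 in Nol3+/+ arrays, with overlap. Hotair, a long non-coding RNA of HoxC, gave 6.08 and 5.99 in Nol3-/- MPN arrays and 5.80 and 6.47 in Nol3+/+ arrays. The log2 differences of Hotair, Mir615, Mir10b, Hoxaas3 and Hoxd3os1 lay between -0.10 for Hotair and 0.03 for Mir10b and Hoxaas3, with overlap of the groups in each. Mir10b, a source of the miR-10b-5p strand shown above, was dim at 3.40 and 3.21 in Nol3-/- MPN arrays and 3.31 and 3.25 in Nol3+/+ arrays.

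A further 7 rows listed a Hox gene together with another symbol and were not counted among the 36. The row of Hoxd4 and Hoxd3 gave 5.57 and 5.42 in Nol3-/- MPN arrays and 5.72 and 5.56 in Nol3+/+ arrays. The dimmer of the 2 rows of Hoxa11 and its antisense gene gave 4.09 and 4.21 in Nol3-/- MPN arrays and 4.61 and 4.17 in Nol3+/+ arrays, and the brighter one had means of 4.94 in Nol3-/- MPN and 5.02 in Nol3+/+. The groups overlapped in all 3 rows.

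Genes of the Hox pathway and of the clusters' surroundings were read from 6 lists, namely cofactors, activators, repressors, the non-coding RNAs above, flanking genes and reported downstream genes, and 0 of their members passed the adjusted threshold in limma. The lists held 97 measured genes, of which some were dim and not tested. In the order of the lists 8, 19, 22, 6, 13 and 17 genes were tested. Of the genes tested, 6 had an unadjusted p under 0.05 in limma. In Nol3-/- MPN 5 of them were higher and 1 lower, against 3.73% and 2.07% of all genes tested. Among 10 TALE cofactors the median log2 difference was 0.01, with 0 members at an unadjusted p under 0.05 in either direction. Meis1, the cofactor that acts with Hoxa9 in stem cells, was bright at 8.01 and 7.97 in Nol3-/- MPN arrays and 7.56 and 8.40 in Nol3+/+ arrays. Its Nol3-/- MPN arrays lay between the Nol3+/+ arrays, and they differed by 0.011 on the log2 scale (SE 0.34, adjusted p = 0.999 in limma). The smallest p values of that list belonged to Pbx4 at 0.15, Meis3 at -0.18 and Pknox2 at 0.09 on the scale of log2 differences.

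Among 20 genes of the MLL complex and other activators the median log2 difference was -0.08, and again 0 had an unadjusted p under 0.05. Kmt2a, the methyltransferase itself, gave 7.01 and 7.29 in Nol3-/- MPN arrays and 6.27 and 6.79 in Nol3+/+ arrays. Both Nol3-/- MPN arrays were above both Nol3+/+ arrays, and the log2 difference was 0.62 (SE 0.26, adjusted p = 0.841 in limma). Kat7, a histone acetyltransferase, had a log2 difference of 0.53, and Mllt3, a reader of acetylated histones that helps maintain stem cells, one of -0.42.

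Among 27 Polycomb group genes and related repressors, a list that also held histone demethylases, the median log2 difference was 0.08. The 2 with an unadjusted p under 0.05 were both higher in Nol3-/- MPN. Kdm6a, an X-linked demethylase that removes the Polycomb mark, gave 8.09 and 7.67 in Nol3-/- MPN arrays and 6.48 and 6.45 in Nol3+/+ arrays. The groups were far apart, and the log2 difference was 1.42 (SE 0.24, adjusted p = 0.692 in limma). Pcgf6, a subunit of a variant Polycomb complex, had a log2 difference of 0.48 (unadjusted p = 0.0281 in limma), and Bmi1, a Polycomb subunit needed for stem cell self-renewal, was dim with 0.49.

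The signal of Xist, the RNA of the inactive X chromosome, was 10.9 and 10.7 in Nol3-/- MPN arrays and 5.43 and 5.28 in Nol3+/+ arrays. Its log2 difference was 5.43 with an adjusted p of 0.0234 in limma. The Y-linked genes ran the other way, with Eif2s3y at 4.24 and 3.97 in Nol3-/- MPN arrays and 6.53 and 7.17 in Nol3+/+ arrays, and differences of -1.50 for Uty and -1.19 for Kdm5d. Sex-linked signal thus divided the arrays as the groups did, and the share of sex, genotype and disease in any difference, that of Kdm6a included, cannot be told apart.

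Among 15 genes that flank the clusters the median log2 difference was 0.00, and 1 had an unadjusted p under 0.05. Hnrnpa3, which encodes an RNA-binding protein and lies beyond HoxD, gave 7.99 and 7.35 in Nol3-/- MPN arrays and 6.68 and 6.79 in Nol3+/+ arrays, or 0.93 more in Nol3-/- MPN on the log2 scale (SE 0.29, adjusted p = 0.841, limma). Skap2, an adaptor gene beyond HoxA, had a difference of 0.71 that rested on replicate 1 of Nol3+/+, at 7.30 against 8.85 and 8.85 in Nol3-/- MPN arrays and 8.99 in replicate 2 of Nol3+/+. Hibadh, also on the HoxA chromosome, had -0.36.

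Among 18 genes reported downstream of Hoxa9 and Meis1 in blood cells the median log2 difference was 0.08. At an unadjusted p under 0.05 in limma, Dnajc10 (0.62) and Erg (0.60) were higher and the chemokine gene Ccl4 (-0.55) was lower in Nol3-/- MPN. Erg, a transcription factor of stem cells, gave 8.92 and 8.59 in Nol3-/- MPN arrays and 8.12 and 8.19 in Nol3+/+ arrays, and its adjusted p in limma was 0.841. Flt3, the receptor that marks multipotent progenitors, gave 7.44 and 6.21 in Nol3-/- MPN arrays and 6.84 and 6.70 in Nol3+/+ arrays. Its Nol3-/- MPN arrays lay on either side of the Nol3+/+ arrays, with a log2 difference of 0.06.

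**Figure D4:**
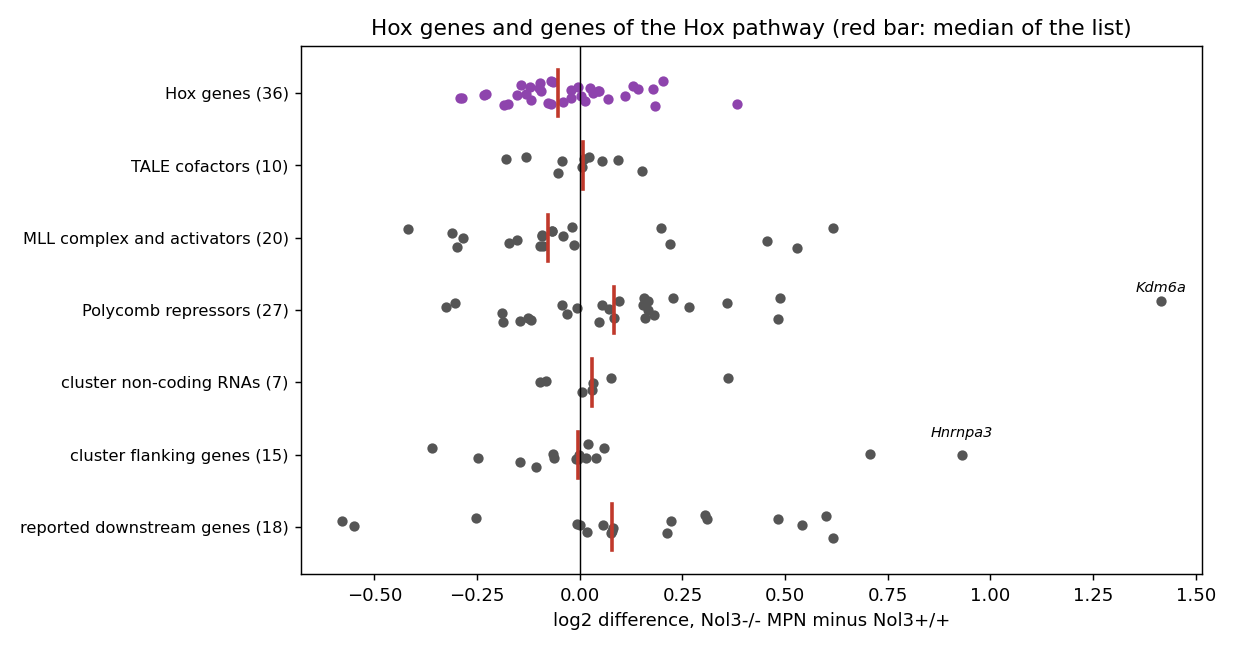
Log2 difference, Nol3-/- MPN minus Nol3+/+ (x axis), of the 36 Hox genes and of the measured genes of 6 lists of cofactors, regulators, cluster non-coding RNAs, flanking and downstream genes (1 point per gene, red bar at the list's median). The Hox genes lie between -0.29 and 0.38, and Kdm6a at 1.42 and Hnrnpa3 at 0.93 are farthest to the right.

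The targeted gene gave no check of the labels, since Nol3 read 5.38 and 5.50 in Nol3-/- MPN arrays and 5.31 and 5.52 in Nol3+/+ arrays, and which part of it was deleted is not given in the sources used here. Of the sort markers, Kit gave 8.38 and 7.39 in Nol3-/- MPN arrays and 8.07 and 8.10 in Nol3+/+ arrays, the leukocyte gene Ptprc 9.06 to 9.25 in all, and Thy1 only 4.64 and 5.24 in Nol3-/- MPN arrays and 4.74 and 5.02 in Nol3+/+ arrays, while Ly6a (Sca-1) had no row of its own. Other marker lists had median log2 differences of 0.03 for 10 stem cell genes, 0.34 for 7 multipotent progenitor genes (7 positive), -0.07 for 11 granulocyte and monocyte genes, 0.04 for 5 erythroid, -0.19 for 5 megakaryocyte, 0.18 for 5 B cell, 0.00 for 6 T and NK cell and -0.04 for 6 stromal genes, with 0 past the adjusted threshold in limma. The log2 signals of the granulocyte and monocyte list summed to 65.8 and 65.8 in Nol3-/- MPN arrays and 64.9 and 69.2 in Nol3+/+ arrays. Those of the progenitor list summed to 48.9 and 46.7 in Nol3-/- MPN arrays and 43.8 and 46.0 in Nol3+/+ arrays. A sum of log2 values is not a total of transcript, since dim genes weigh in it almost as bright ones do. Of the 10 stem cell genes 5 were positive and 5 negative, and of all 22180 genes 11254 were positive. Among the 7 progenitor genes Cd34 (0.0015) and Flt3 (0.06) were near 0, with overlap of the arrays. Both Nol3-/- MPN arrays lay above both Nol3+/+ arrays for 4 of the 7, against 18.8% of all genes. An unadjusted p under 0.05 in limma was reached by 0 of the 6 progenitor genes tested. At an unadjusted p under 0.05 in limma, 1 of 9 stem cell genes tested, the factor Hlf (-0.83), was lower in Nol3-/- MPN. So were 2 of 7 granulocyte and monocyte genes tested, S100a8 (-0.86) and S100a9 (-0.83). The share of all genes tested that were lower was 2.07%. Higher at that threshold were the platelet gene Pf4 (0.59), 1 of 5 tested, and the B cell gene Cd79b (0.50), 1 of 4 tested. The NK cell gene Nkg7 (0.86), 1 of 6 T and NK cell genes tested, was higher too. The share of all genes tested that were higher was 3.73%. The progenitor, erythroid and stromal lists had 0 in either direction. In lists of so few genes 1 call is already a large share. The granulocyte gene Ly6g was dim with 0.83. The part of these marker differences in the Hox values was not tested.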

How the data were processed

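Total RNA of sorted cells was amplified by single-primer isothermal amplification and hybridised to Affymetrix whole-transcript arrays, per the labels' protocols. Tools named by the submitters' processing notes are Transcriptome Analysis Console and Affymetrix Expression Console, with no version, and how background was corrected or arrays were normalized is not stated in any source used. The authors deposited a table of 41345 rows whose log2 values run from 2.84 to 13.5; the base was taken from that range, and the array medians were 5.35 and 5.39 in Nol3-/- MPN and 5.38 and 5.37 in Nol3+/+.

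Of the rows, 23521 listed 1 symbol in the platform annotation, 1814 several and 16010 none. They stood for 22180 genes; for 1082 with several rows the brightest by mean over all arrays was used, and 21994 gene identifiers matched RefSeq (GRCm38.p6). The test was limma's (lmFit and eBayes with a variance trend, version 3.58.1 under R 4.3.3), without a block, after removal of genes under the 25th percentile, and tested on simulated data. Same-numbered arrays did not deviate together (correlation 0.0485), so the numbers were not taken to pair them. Hox genes with the 6 smallest p values and the 3 smallest of each pathway list were named, with Meis1, Kmt2a, Flt3, Nol3, Xist and Y-linked genes always; Ddx3y had no row of its own. Members and lists were chosen with earlier results of these data known. The number of arrays limits the precision.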

Additional observations from a re-analysis of the deposited data

Results flagged for a closer look

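Among rows left out because they list several symbols, the row of Mira and Hoxa7 gave 6.78 and 6.58 in Nol3-/- MPN arrays and 6.53 and 6.32 in Nol3+/+ arrays. It drew attention because a Hox signal in data outside the comparison lay higher in both Nol3-/- MPN arrays, with a log2 difference of 0.26. The same held for 1 of the 7 such rows with a Hox symbol, against 17.9% of all 1814 rows with several symbols. The row that names Hoxa7 alone was lower in both Nol3-/- MPN arrays, at -0.15, so the 2 rows differ in direction. The mean of the shared row over the 4 arrays, 6.55, was above the 6.43 of Hoxd10, the brightest of the 36 genes. Which transcript the shared row measures was not tested.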

How the results depend on the processing

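The number of Hox genes past the adjusted threshold was 0 in each of the 14 alternatives run, and the median log2 difference of the Hox genes stayed negative, between -0.07 and -0.03, over 7. With the replicate block, 0 Hox genes passed the adjusted or the unadjusted threshold. Same-numbered arrays correlated at 0.0485 over 16635 genes after removal of group means, and the block moved the count over all genes at an unadjusted p under 0.05 to 972, against 965 without it, and the count past the adjusted threshold to 0, against 4. Leaving out each array in turn gave 0 to 1 Hox genes higher and 0 to 1 lower at an unadjusted p under 0.05, namely Hoxa2 and Hoxc4 without replicate 2 of Nol3-/- MPN, where 4.92% of all genes were called (3.44% to 11.4% over the 4 settings). The ordinary test without moderated variance gave 1 lower, Hoxa4, with an unadjusted p of 0.0181 and an adjusted p of 0.860. Groups that did not overlap numbered 5 to 8 higher and 14 to 20 lower when an array was left out (31.3% to 36.6% and 27.3% to 36.9% of all genes), since a group of 1 array overlaps less often by construction. They numbered 1 higher after quantile normalization (17.5% of all genes) and 2 after median centring (19.5%). With an array left out, the log2 difference of Hoxa2 ran from -0.018 (without replicate 1 of Nol3-/- MPN) to 0.78 (without replicate 2 of Nol3-/- MPN). The count of 6 pathway genes at an unadjusted p under 0.05 ran from 1 (without replicate 1 of Nol3-/- MPN) to 13 (without replicate 2 of Nol3+/+) with an array left out, and was 3 under a stricter dim filter at the 50th percentile, which tests fewer genes. Over the alternatives the lowest adjusted p in limma was 0.517 for Hoxc9, 0.725 for Hoxc4 and 0.616 for Hoxa2. The lone array of a group was assumed to vary like the other group. The cause of the other shifts was not tested. Low signal over background limits what these rows can show.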
